A study of Ramazzottius varieornatus and Hypsibius exemplaris with 16 samples.

Results

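The genes described here are those of the tardigrade Hypsibius exemplaris for which the transcript set lists 3 or more isoforms. A gene was taken as a target identifier without its .t number, and the members are the targets of such genes with a listed length under 9000 bases. They number 250 of 20853 targets, in 81 of 19939 genes. The transcript set lists 83 genes with 3 or more targets, 73 of them with 3 targets and 10 with 4, and 259 targets in all. The length limit left out 9 of those targets, the shortest of them at 9621 bases and the longest at 18900 bases, which removed 2 genes completely and left BV898_00035 with 1 member. The longest member was BV898_01273.t01 at 8775 bases, the shortest had 243 bases, and the median was 1930.5 bases. Of the member lengths, 99.6% could be divided by 3, so a length here means a coding length with no untranslated region.

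RNA from storage cells (5 libraries) was set against RNA from active whole bodies (3 libraries), both of strain Z151, which was cultured at 18 °C on agar and fed the alga Chlorella vulgaris. The labels give each library as a biological replicate and do not give the number of animals behind one. Storage cells came from animals cut open in dilute buffer, where released cells were aspirated and placed straight into SMART-Seq v.4 lysis buffer, while whole animals were homogenised in TRIzol and their RNA was purified on columns. Both kinds of RNA were then amplified with SMART-Seq v.4. The manner of preparation and the sample type therefore cannot be told apart. The study compared these cells with the whole animal in 2 species, and the other species does not enter here because its targets are its own.

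Many animal genes with introns can be spliced in more than one way, through skipped exons, alternative splice sites or alternative first and last exons. Cell types can differ in which isoform of a gene leads. An isoform can differ from its neighbour in a whole protein domain or in a few residues. Storage cells are free cells that float in the body cavity of tardigrades and hold reserves such as lipid and glycogen; whole bodies contain them together with muscle, gut, epidermis, nervous tissue and gonad. The tables carry identifiers without gene symbols, so no role is given to any gene below, and the labelled cell type could not be checked against marker genes. In bulk samples, fewer cells of a type and less RNA per cell cannot be told apart.

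Storage cell libraries held between 7680812 and 10343744 estimated counts and whole-body libraries between 5437134 and 5807509. Members took 0.15% to 0.257% of the counts in storage cells and 0.427% to 0.494% in whole bodies. Between 117 and 140 members had a count in a storage cell library, against 166 to 172 in a whole-body library, although the storage cell libraries were the deeper ones. The median member gene had 10 to 55 counts in storage cell libraries and 110 to 144 in whole-body libraries, so shares within a gene are less precise in storage cells. Estimated counts come from dividing reads that fit several targets. Of the members with a count, 83.6% to 91.9% had a count that was not whole in storage cells and 84.9% to 89.8% in whole bodies, against 7.27% to 10.7% of the targets of single-target genes over all 8 libraries. Without storage cell replicate 3, 48 members passed the threshold in the tests of abundance, against 32 with all libraries. The share of all targets that passed without it is not given. A shift of all targets and a trait of the members therefore cannot be told apart in this number.

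Every member can be placed by where it was seen. No count was listed in any library for 41 of the 250 members (16.4%), 8 members (3.2%) had counts in storage cells only, 42 (16.8%) in whole bodies only, and 159 in both. Genes with exactly 2 targets had 11.8%, 3.07% and 15.1% in those first 3 classes. Single-target genes had 19.7%, 3.01% and 12.4%. By gene, 5 member genes were listed at 0 in every library, 11 had counts in whole bodies and none in storage cells, and 2 had counts in storage cells and none in whole bodies. BV898_00593, which has 4 targets of 465 to 1098 bases, was among those at 0 throughout. BV898_00096, also with 4 targets, had summed counts of 0, 2, 0, 0 and 0 in storage cell replicates 1 to 5 and of 33, 37 and 21 in whole-body replicates 1 to 3. In whole bodies its counts moved between targets, with BV898_00096.t01 leading at 67.7% in replicate 1, BV898_00096.t02 at 59.3% in replicate 2 and BV898_00096.t04 at 100% in replicate 3.

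The share of a target is its estimated count over the summed count of the members of its gene in the same library. Shares were read where a gene had at least 20 counts, and a gene was assessed with at least 3 such storage cell libraries and 2 such whole-body libraries, which 36 of the 80 genes with 2 or more members reached. The target with the highest mean share was taken as the leading isoform of a group. It differed between storage cells and whole bodies in 11 of the 36 genes (30.6%), against 22.5% of all 329 genes assessed and 63 of 293 genes (21.5%) with exactly 2 targets. In 2 of the 36 genes, BV898_04393 and BV898_10019, each library was led by the leading isoform of its own group, against 3.34% of all genes assessed. In 12 of the 36 genes (33.3%) a single isoform led in all assessed libraries of both groups, against 37.4% of all genes assessed. The 2 genes BV898_15231 and BV898_15913 had no leader, since their .t01 and .t02 targets had equal counts in all 8 libraries. These shares of genes lie near the background, and no test of the difference from 2-target genes was made.

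**Figure D1:**
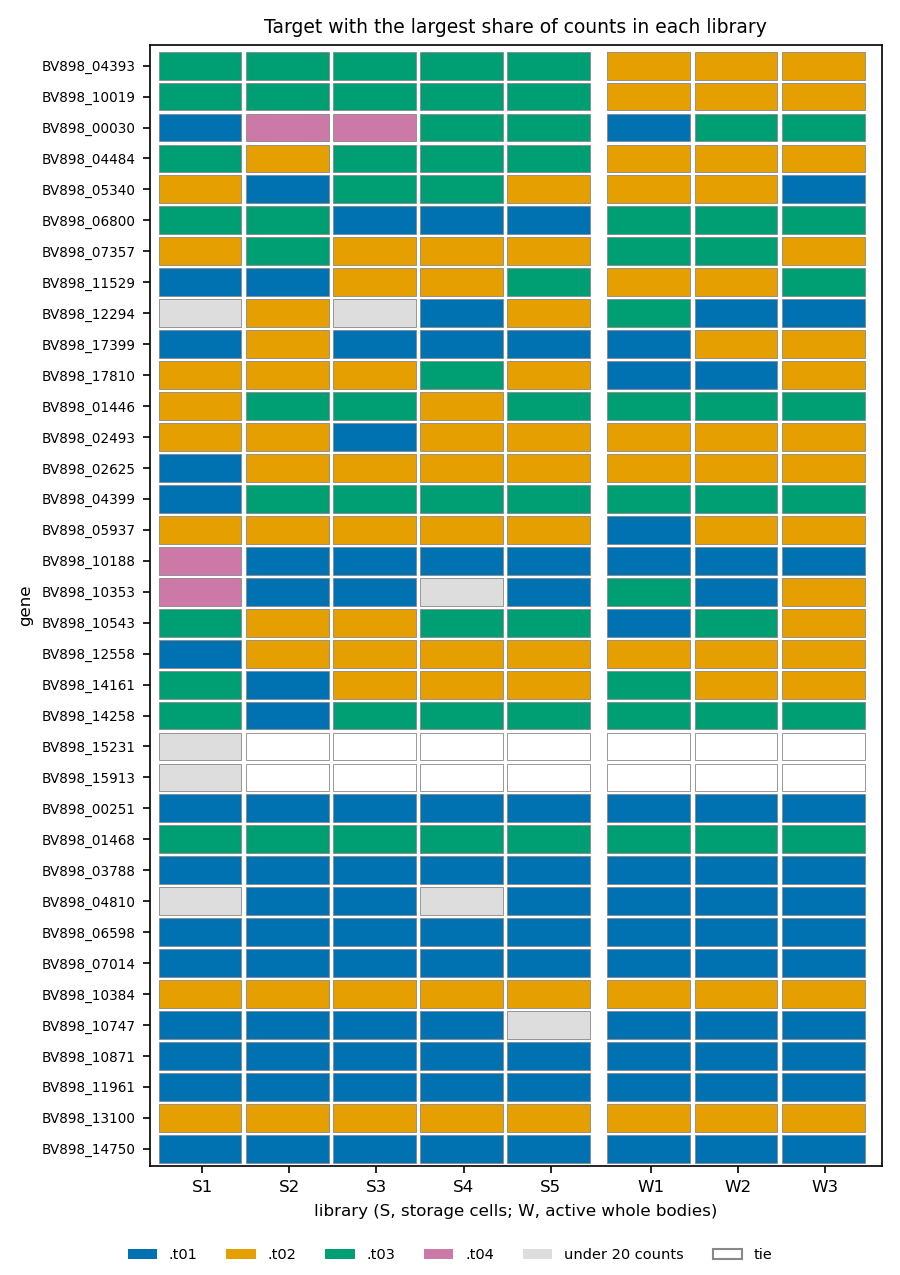
Isoform with the largest share of counts in each of the 8 libraries (columns; S1 to S5, storage cells; W1 to W3, active whole bodies) for the 36 genes assessed (lines). Colours mark the .t number, grey a gene with under 20 counts in that library and white a tie; BV898_04393 and BV898_10019 at the top change colour between the groups in all 8 libraries, the 9 genes after them have group leaders that differ, and the last 12 keep 1 colour.

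In BV898_04393 a short isoform led in storage cells and a long isoform led in whole bodies. The gene has 4 targets, BV898_04393.t01 (3201 bases), BV898_04393.t02 (3204 bases), BV898_04393.t03 (1563 bases) and BV898_04393.t04 (1353 bases). The short BV898_04393.t03 held 59.2%, 37%, 58.8%, 69.3% and 59.6% of the counts in storage cell replicates 1 to 5, against 15.2%, 14.5% and 20.6% in whole-body replicates 1 to 3. The long BV898_04393.t02 held 9.61%, 25.6%, 13.9%, 8.79% and 22.6% in storage cells, against 63%, 41.9% and 57% in whole bodies. Neither isoform had overlapping groups. The shortest one, BV898_04393.t04, held 11.3% to 28% in storage cells and at most 7.11% in whole bodies. On the TPM scale, which is per length, BV898_04393.t03 held 50.5% to 70% in storage cells and 25.5% to 37.5% in whole bodies, and BV898_04393.t02 led all 3 whole-body libraries with 31.8% to 52.4%.

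The mean share of BV898_04393.t02 was 16.1% ± 7.62 in storage cells (SD, n = 5) and 53.9% ± 10.9 in whole bodies (SD, n = 3), a difference of -37.9 percentage points. The two-sided exact permutation test over all 56 arrangements gave p = 0.0179, the smallest it can give, and 0.143 after Benjamini-Hochberg adjustment over the 329 genes. The edgeR test of isoform usage described further on gave an adjusted p of 0.0654, which misses the threshold. With 1 library left out the edgeR value was 0.0249 to 0.226, and it passed without whole-body replicate 2 (0.0249) or storage cell replicate 2 (0.0428) and missed in the other 6 cases. Summed counts of the gene were 709, 296, 531, 2556 and 221 in storage cells and 661, 846 and 610 in whole bodies, and edgeR gave a log2 fold change of 1.59 with an adjusted p of 0.266. The leading isoform thus followed the sample type in all 8 libraries, while the gene's total overlapped between the groups.

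BV898_10019 changed its leading isoform among 3 targets of nearly equal length (1527, 1545 and 1569 bases). BV898_10019.t03 held 77.1%, 60.8%, 74.5%, 60% and 77.2% of the counts in storage cell replicates 1 to 5, against 0%, 43.8% and 38.3% in whole-body replicates 1 to 3. BV898_10019.t02 held 22.9%, 29.5%, 0.000412%, 21.7% and 22.8% in storage cells, against 100%, 56.2% and 61.7% in whole bodies. Groups were apart for both isoforms, but the spread within a group was wide, with BV898_10019.t02 near 0 in storage cell replicate 3 and BV898_10019.t03 at 0 in whole-body replicate 1. The mean share of BV898_10019.t02 was 19.4% ± 11.3 in storage cells (SD, n = 5) and 72.6% ± 23.9 in whole bodies (SD, n = 3), with an exact permutation p of 0.0179, adjusted 0.143. The edgeR usage test gave an adjusted p of 0.167. BV898_10019.t01 had 16.2, 43 and 33.9 counts in storage cell replicates 2, 3 and 4, 0 in the other two, and at most 1.34e-06 in whole bodies. Its edgeR adjusted p was 0.068.

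The other 9 genes whose group leaders differed did so with libraries that disagreed within a group. In BV898_04484, the short BV898_04484.t03 (957 bases) held 54.5%, 41.6%, 45.4%, 43.8% and 47.9% in storage cells, against 21.9%, 26.4% and 31.9% in whole bodies. The longer BV898_04484.t02 (2784 bases) held 29.8%, 49.4%, 31.3%, 33.9% and 13.7% in storage cells, against 71.3%, 68.5% and 47.3% in whole bodies. The groups were apart for BV898_04484.t03 and overlapped for BV898_04484.t02 through storage cell replicate 2. The exact permutation p for BV898_04484.t02 was 0.0357, adjusted 0.21. On the TPM scale BV898_04484.t03 led in both groups, so the change of leader in this gene exists on the count scale only.

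In the genes with long isoforms of near-equal length, replicates of the same group often had different leaders. BV898_17399.t02 held 75.4% of the counts in storage cell replicate 2 and at most 0.345% in the other 4, against 0.0908%, 94.4% and 81.9% in whole bodies. BV898_17399.t01 (2586 bases, against 2601 bases for BV898_17399.t02) held nearly all the rest. The exact permutation p for BV898_17399.t02 was 0.25. BV898_00030, with 4 targets of 6723 to 6747 bases, was led by BV898_00030.t01 at 98.2% in storage cell replicate 1 and by BV898_00030.t04 at 59.5% in storage cell replicate 3. Whole-body replicate 1 was led by BV898_00030.t01 at 51.9% and replicate 3 by BV898_00030.t03 at 73.7%. Its 2 groups overlapped.

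BV898_17810 has 4 targets of 2049 to 2187 bases. BV898_17810.t01 held 0%, 21.4%, 0%, 0% and 0% in storage cells, against 39.3%, 42.3% and 46.2% in whole bodies, and the groups did not overlap. BV898_17810.t02 held 65.2%, 41%, 100%, 0% and 60.9% in storage cells, against 13.1%, 0% and 53.8% in whole bodies, which overlap. The exact permutation p for the share of BV898_17810.t01 was 0.161, because the isoform that leads is picked again in each arrangement. BV898_12294 was assessed in 3 storage cell libraries, and BV898_12294.t03 held 21%, 0.0125% and 0% in replicates 2, 4 and 5, against 53.1%, 41.5% and 36.7% in whole bodies. Its exact permutation p, over 20 arrangements, was 0.25.

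In BV898_06800, which had 21 to 173 counts in storage cells and 1624 to 2392 in whole bodies, storage cell replicates 1 and 2 were led by BV898_06800.t03 with 100% and 70.7%. Storage cell replicates 3, 4 and 5 were led by BV898_06800.t01 with 99.4%, 99.8% and 99.5%. All 3 whole-body libraries were led by BV898_06800.t03 with 46.6%, 56.8% and 48.1%. BV898_05340 has 3 isoforms of 1608 to 1623 bases, each of which led in at least 1 storage cell library. BV898_05340.t02 held 0% to 47.4% in storage cells and 34% to 51.5% in whole bodies. The exact permutation p was 0.571 for BV898_06800 and 0.214 for BV898_05340. The leader also differed in BV898_07357 and BV898_11529, by shares of -9.54 and -8.34 percentage points for the whole-body leader, with overlapping groups.

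Over the 36 genes, the share of the whole-body leader did not overlap between groups in 10 (27.8%), against 20.7% of all genes assessed. The exact permutation p was under 0.05 without adjustment in 9 of the 36 genes, against 17% of all genes assessed, and no gene passed after adjustment, here or among all 329 genes, where 0.143 was the smallest adjusted value. A comparison of 5 with 3 libraries cannot give a p under 0.0179. Among the 9 genes, 6 had the same leading isoform in both groups by mean share of counts: BV898_00251, BV898_04399, BV898_05937, BV898_10384, BV898_10871 and BV898_14750. The whole-body libraries of BV898_05937 did not all have the same leader. In BV898_05937 the leader's mean share was 89.2% ± 11.1 in storage cells (SD, n = 5) and 42.7% ± 30.1 in whole bodies (SD, n = 3). In BV898_00251 it was 93% ± 1.5 in storage cells and 83.3% ± 1.71 in whole bodies, with the same n. These 2 genes were named because they were among the 9, after their values had been seen.

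**Figure D2:**
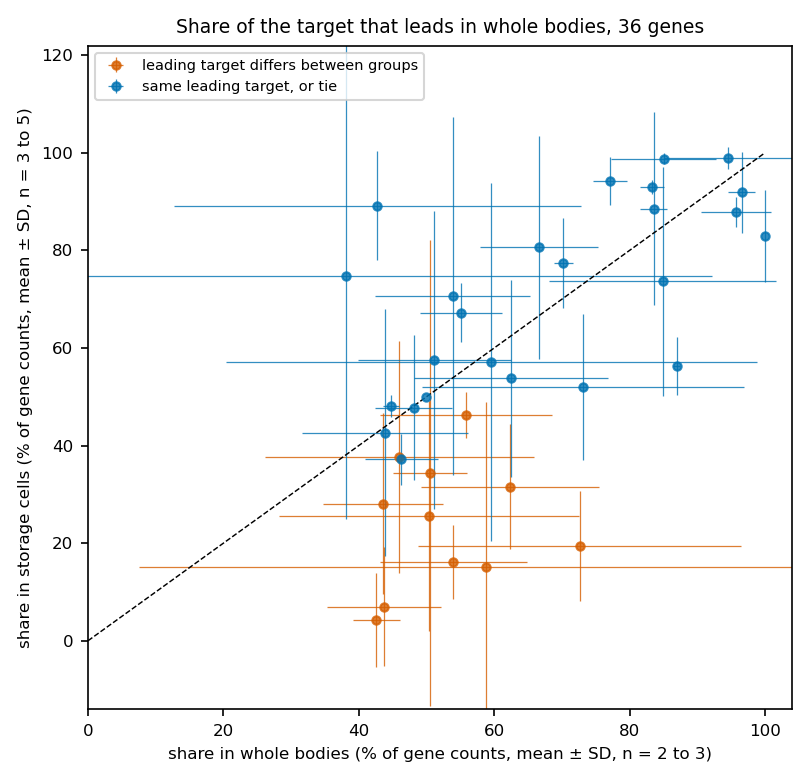
Mean share of counts, ± SD, of the isoform that leads in whole bodies, in storage cells (vertical axis, 3 to 5 libraries) against whole bodies (horizontal axis, 2 to 3 libraries), for the 36 genes assessed. Orange points are the 11 genes whose leading isoform differs between groups. All of them lie under the dashed line of equal shares, which follows largely from choosing the isoform that leads in whole bodies only. The bars are the spread between libraries.

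BV898_10871 kept its leader on the count scale, at a lower share in storage cells. Its targets are BV898_10871.t01 (756 bases), BV898_10871.t02 (345 bases) and BV898_10871.t03 (411 bases). BV898_10871.t01 held 46.9%, 61.8%, 61%, 55.9% and 55.9% of the counts in storage cells, against 87.4%, 86.4% and 87.1% in whole bodies. The groups were far apart, and the 3 whole-body values were close to each other. The mean was 56.3% ± 5.91 in storage cells (SD, n = 5) and 87% ± 0.5 in whole bodies (SD, n = 3), with an exact permutation p of 0.0179, adjusted 0.143. On the TPM scale BV898_10871.t02 led all 5 storage cell libraries with 46.9% to 57.1%, against 20.5% to 23.9% in whole bodies, where BV898_10871.t01 led with 61.9% to 64.4%. The leader of this gene thus changed in every library on the TPM scale and in none on the count scale. The edgeR usage test gave an adjusted p of 0.265, and limma's diffSplice, listed as an alternative, gave 0.0189.

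**Figure D3:**
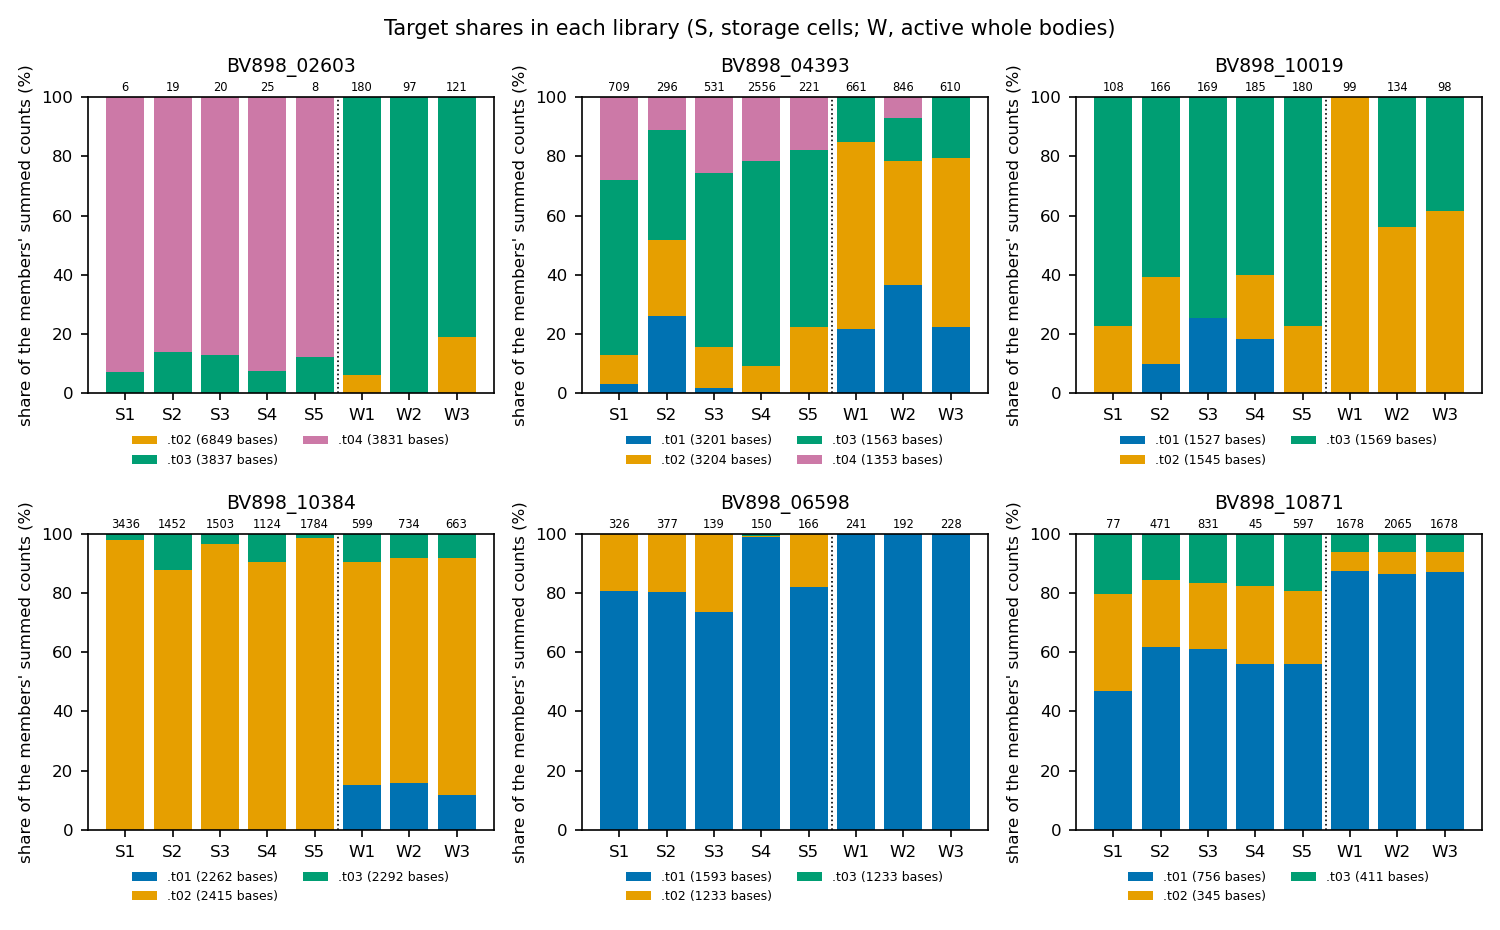
Share of each isoform in the summed counts of its gene's members (vertical axis, %) in storage cells (S1 to S5) and active whole bodies (W1 to W3) for 6 genes, with the summed count of the gene above each bar and listed lengths in the legends. The 6 genes were picked with the results known. BV898_02603, BV898_10384 and BV898_06598 passed the edgeR usage test, and BV898_04393, BV898_10019 and BV898_10871 did not. BV898_02603 had 6 to 25 counts in storage cells, and BV898_06598.t02 is nearly absent from S4. BV898_10871.t01 stays the largest block in all 8 bars although its share is lower in storage cells.

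Distances between libraries put these differences beside the replicate spread. The distance between the mixes of 2 libraries was taken as the summed absolute difference of shares divided by 2, in percentage points. Its median over the 36 genes was 26.0 between storage cell and whole-body libraries, 19.5 between storage cell replicates and 16 between whole-body replicates. In 16 of the 36 genes the distance between groups was above both distances within groups. Genes with exactly 2 targets had medians of 20.8, 17.5 and 10.4 in the same order. The leading isoform of a gene was the same in 53.1% to 73.5% of genes over the 15 pairs of a storage cell and a whole-body library. It was the same in 56.3% to 84.4% over the 10 pairs of storage cell libraries and in 67.6% to 82.4% over the 3 pairs of whole-body libraries. These ranges overlap.

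The lengths of the isoforms divided the genes. In 35 of the 80 genes with 2 or more members the shortest member was at least 95% as long as the longest, and in 18 it was under 50%. Among the 36 assessed genes, 19 had isoforms of near-equal length by the 95% limit. In these 19, a single isoform led everywhere in 3 genes and led all whole-body libraries in 9, and the leader differed between groups in 7. In the other 17 genes those counts were 9, 14 and 4. The median distance was 32.3 points between storage cell replicates and 26.2 between whole-body replicates for near-equal isoforms, and 10.7 and 8.46 points for the others. Replicates of one group thus differed more where isoforms were near-equal in length. These are counts and medians over genes, and no test was made.

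**Figure D4:**
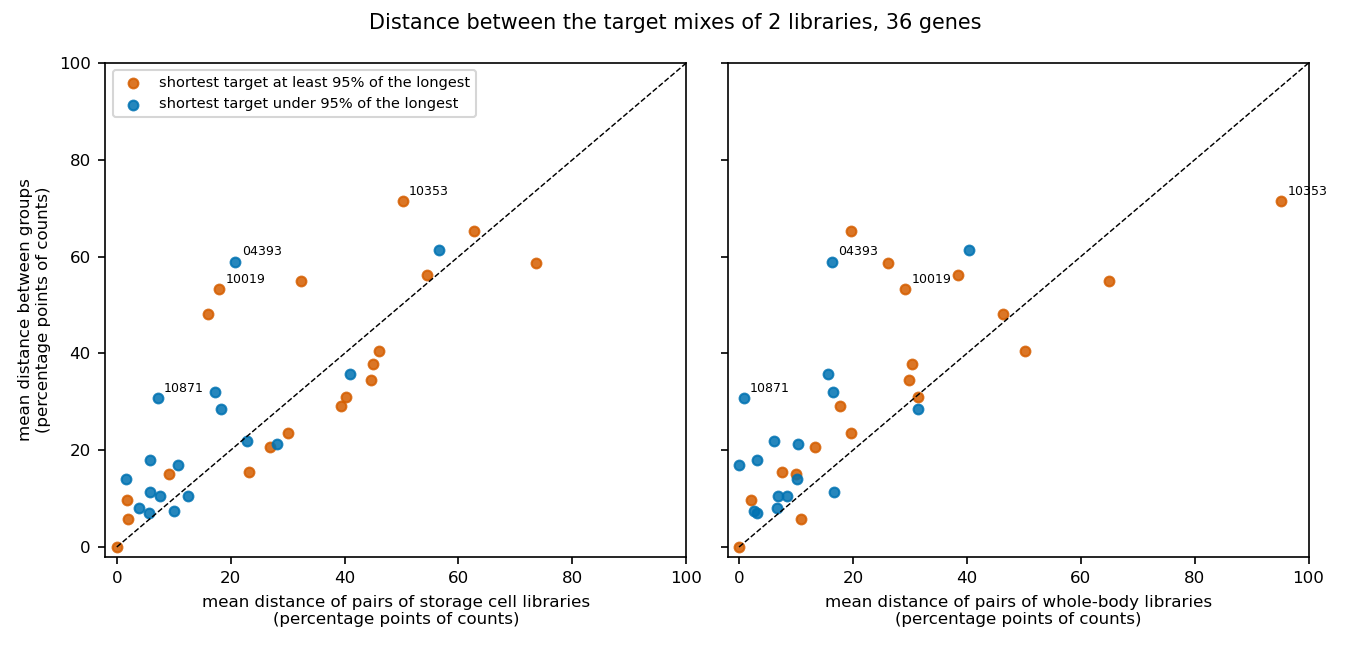
Mean distance between the isoform mixes of a storage cell and a whole-body library (vertical axis, percentage points of counts) against the mean distance of pairs of storage cell libraries (left) and of whole-body libraries (right), 1 point for each of 36 genes. BV898_04393, BV898_10019 and BV898_10871 lie above the dashed line of equality in both panels; most genes with isoforms of near-equal length (orange) have larger distances within groups than the others (blue), and BV898_10353 is marked as the gene with the largest distance between whole-body libraries.

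The leading isoform was the longest member in 9 of the 36 genes in storage cells and in 10 in whole bodies. It was the target numbered .t01 in 17 genes in storage cells and in 14 in whole bodies. In the 30 genes with enough counts in all 8 libraries, the mean number of isoforms holding at least 10% of the counts was 1.93 to 2.2 in storage cell libraries and 2.17 to 2.2 in whole-body libraries. The median share of the leading isoform was 67.4% to 75.7% in storage cell libraries and 62.5% to 68.4% in whole-body libraries, and these ranges overlap. In either sample type, the counts of these genes lay mostly in about 2 isoforms.

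Isoform usage was then tested with edgeR's diffSpliceDGE, which asks whether the isoforms of a gene have the same fold change between storage cells and whole bodies. It was fitted over all targets with enough counts. An isoform near 0 in either group, such as BV898_10384.t01 or BV898_02603.t04, passed that filter through the other group alone and had to differ. Usage calls that rest on such isoforms are therefore descriptions. Of 47 member genes tested, 6 passed an adjusted p of 0.05 (12.8%), against 8.38% of all 394 genes tested and 27 of 345 genes with exactly 2 targets. Without adjustment, 11 of the 47 had an edgeR p under 0.05, and the share over all 394 genes is not given for this limit. Leaving out any whole-body library kept only BV898_10384 and BV898_02603 of the 6, and the other 4 calls rest on all 3 whole-body libraries. With library totals in place of TMM factors, 5 of the 6 calls were made again. With Simes-adjusted target tests, and with no filter on low counts, only BV898_10384, BV898_02603 and BV898_06598 of the 6 passed.

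BV898_10384 had the smallest p of the 6, with an edgeR adjusted p of 4.98e-05. BV898_10384.t01 (2262 bases) had 0, 0, 0, 0.0254 and 0 counts in storage cell replicates 1 to 5, against 91.3, 115 and 78.6 counts in whole-body replicates 1 to 3. BV898_10384.t02 (2415 bases) had 3366, 1273, 1448, 1015 and 1759 counts in storage cells, against 451, 557 and 530 counts in whole bodies. The first isoform was present in all whole-body libraries and, at this depth, not detectable in storage cells, where it was at least 88.3-fold lower per TMM-scaled count when a floor of 3 counts over the group is used (edgeR adjusted p 0.00529). The second rose by 2.82 ± 0.65 on the log2 scale (SE, n = 5 and 3; edgeR adjusted p 0.0122), a call that was lost without any 1 of the whole-body libraries and, with library totals, had a log2 fold change of 1.21 and an edgeR adjusted p of 0.0762. BV898_10384.t02 led in all 8 libraries, with 87.7% to 98.6% of the counts in storage cells and 75.3% to 79.9% in whole bodies.

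BV898_02603 had opposite changes in isoforms that differ by few bases in length. BV898_02603.t04 (3831 bases) had 5.57, 16.3, 17.4, 23.1 and 7.01 counts in storage cells, against at most 0.0297 counts in any whole-body library. BV898_02603.t03 (3837 bases) had 0.431, 2.66, 2.6, 1.87 and 0.986 counts in storage cells, against 168, 97 and 98 counts in whole bodies. The groups were apart for both, in opposite directions. BV898_02603.t04 was at least 24.9-fold higher in storage cells against the floor of 3 counts (edgeR adjusted p 0.00645), and BV898_02603.t03 fell by 5.2 ± 0.84 on the log2 scale (SE; edgeR adjusted p 0.00448). The edgeR usage test gave an adjusted p of 0.000903. BV898_02603.t04 held 86% to 92.8% of the members' counts in storage cells, and BV898_02603.t03 held 81% to 100% in whole bodies. The gene had 6 to 25 member counts in storage cell libraries, mostly under the limit for shares, so it is not among the 36 assessed genes. Without storage cell replicate 2, 3 or 4 too few counts were left for this test. A further target of the gene above the length limit is no member. The summed gene, that target included, fell by 2.40 ± 0.63 (log2, SE; edgeR adjusted p 0.0203), and this call was lost without any 1 of the whole-body libraries (edgeR adjusted p 0.0547 to 0.0992).

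In 3 of the other 4 genes, an isoform seen in one sample type was not detectable in the other. Each of these isoforms passed the filter on low counts through its higher group alone. Their folds and adjusted p, and the usage calls of their genes, are therefore descriptions. BV898_06598.t02 (1233 bases) had 63.7, 73.8, 36.9, 0.656 and 30.2 counts in storage cells, against 0 in all 3 whole-body libraries. It was at least 73.6-fold higher in storage cells against the floor (edgeR adjusted p 0.012). BV898_06598.t01 (1593 bases) led in all 8 libraries, with 73.5% to 98.7% in storage cells and 100% in whole bodies. Storage cell replicate 4 stood out, with 0.437% for BV898_06598.t02 against 18.2% to 26.5% in the other 4. The edgeR usage test gave an adjusted p of 0.00896, and 0.0521 to 0.0539 without one of the whole-body libraries.

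BV898_04810.t02 (2976 bases) had no count in the storage cell libraries and 132, 75.5 and 80.8 counts in whole bodies, at least 89.2-fold lower in storage cells (edgeR adjusted p 0.00585). BV898_04810.t01 (2850 bases) had 9, 194, 42, 9 and 15.8 counts in storage cells, against 575, 688 and 419 in whole bodies. Both fell, and every whole-body value lay above every storage cell value. BV898_04810.t01 fell by 2.82 on the log2 scale (edgeR adjusted p 0.0331), a call that held without storage cell replicate 2 and was lost without any other library (edgeR adjusted p 0.0518 to 0.094) and with no filter on low counts (0.0529). The usage call of the gene (edgeR adjusted p 0.0245) was lost without any 1 of the whole-body libraries (edgeR adjusted p 0.0635 to 0.0984).

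BV898_01273.t02 (8724 bases) had no count in storage cells and 131, 164 and 21.1 in whole bodies, at least 97.9-fold lower in storage cells (edgeR adjusted p 0.00958). BV898_01273.t03 (8448 bases) had 3, 10, 239, 12 and 19 counts in storage cells, against 294, 159 and 234 in whole bodies, with replicate 3 inside the whole-body range. Most of the storage cell counts of this gene came from that library, and its usage call (edgeR adjusted p 0.0366) was lost without it (edgeR adjusted p 0.0646), without storage cell replicate 4 or 5, or without any whole-body library (edgeR adjusted p 0.0518 to 0.138), and limma's diffSplice gave 0.31. BV898_14750 kept BV898_14750.t01 (2547 bases) as leader, with 97.4% to 100% in storage cells and 79.8% to 93.9% in whole bodies. BV898_14750.t02 (1800 bases) had 0, 6.35, 5.51, 0.00203 and 7.57e-06 counts in storage cells, against 32.3, 58.1 and 63.5 in whole bodies, and fell by 3.79 ± 1.25 (log2, SE; edgeR adjusted p 0.0484). This isoform also passed the filter on low counts through whole bodies alone. Its fold and adjusted p, and the usage call of its gene, are therefore descriptions. The usage call of BV898_14750 (edgeR adjusted p 0.0467) was lost with library totals, at 0.0892, and without storage cell replicate 1, 4 or 5 or any whole-body library (edgeR adjusted p 0.0621 to 0.193). The abundance call of BV898_14750.t02 was lost without the same 6 libraries (edgeR adjusted p 0.0598 to 0.138) and with no filter on low counts (0.0743). The gene's sum had a log2 fold change of 0.10 (edgeR adjusted p 0.865).

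The abundance of each isoform was compared with edgeR's quasi-likelihood test. Of the 250 members, 129 passed the filter on low counts and 121 did not. Past an adjusted p of 0.05 were 32 of the 129 (24.8%), against 32.4% of all targets tested. Of the 129, 13 rose, against 1548 of all 11764 targets tested (13.2%), and 19 fell, against 2266 (19.3%). Values of the 2 groups were apart for 53 of the 129 members (41.1%), against 50.5% of all targets. The median log2 fold change was -0.35 over these members and -0.47 over all targets. The percentages of members called and apart lay below those of all targets, and no test of that difference was made. A member that passed the filter through its higher group alone had to differ. Folds and adjusted p of such members are descriptions.

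The direction of moderate changes depended on scaling. TMM factors were 0.506 to 0.964 in storage cell libraries and 1.85 to 2.04 in whole-body libraries. With library totals alone, the median log2 fold change of all targets was -1.88 in place of -0.47. Of the 129 members tested, 7 then rose and 39 fell, against 682 (5.8%) and 5134 (43.6%) of all 11764 targets tested. Changes below are on the TMM scale and hold their direction and call with library totals unless a value is given.

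Summed over isoforms, 60 of the 81 genes were tested and 29 passed (48.3%), against 34.1% of all genes tested. Of the 60, 10 rose, against 1568 of all 11370 genes tested (13.8%), and 19 fell, against 2310 (20.3%). Groups were apart for 38 of the 60 (63.3%), against 51.4% of all genes, and the median log2 fold change was -0.78 over member genes and -0.46 over all genes. With library totals, 5 of the 60 member genes rose and 32 fell, against 679 (5.97%) and 5158 (45.4%) of all 11370 genes. On their sum, 12 genes passed with no single isoform past the threshold, and 5 had an isoform past it while the sum was not. In 7 genes with 2 or more tested isoforms every tested isoform passed, and in 2 genes, BV898_02603 and BV898_10384, one isoform rose while another fell. The matching counts over all genes with 2 or more targets are not given. These counts therefore cannot be read as a trait of the member genes.

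**Figure D5:**
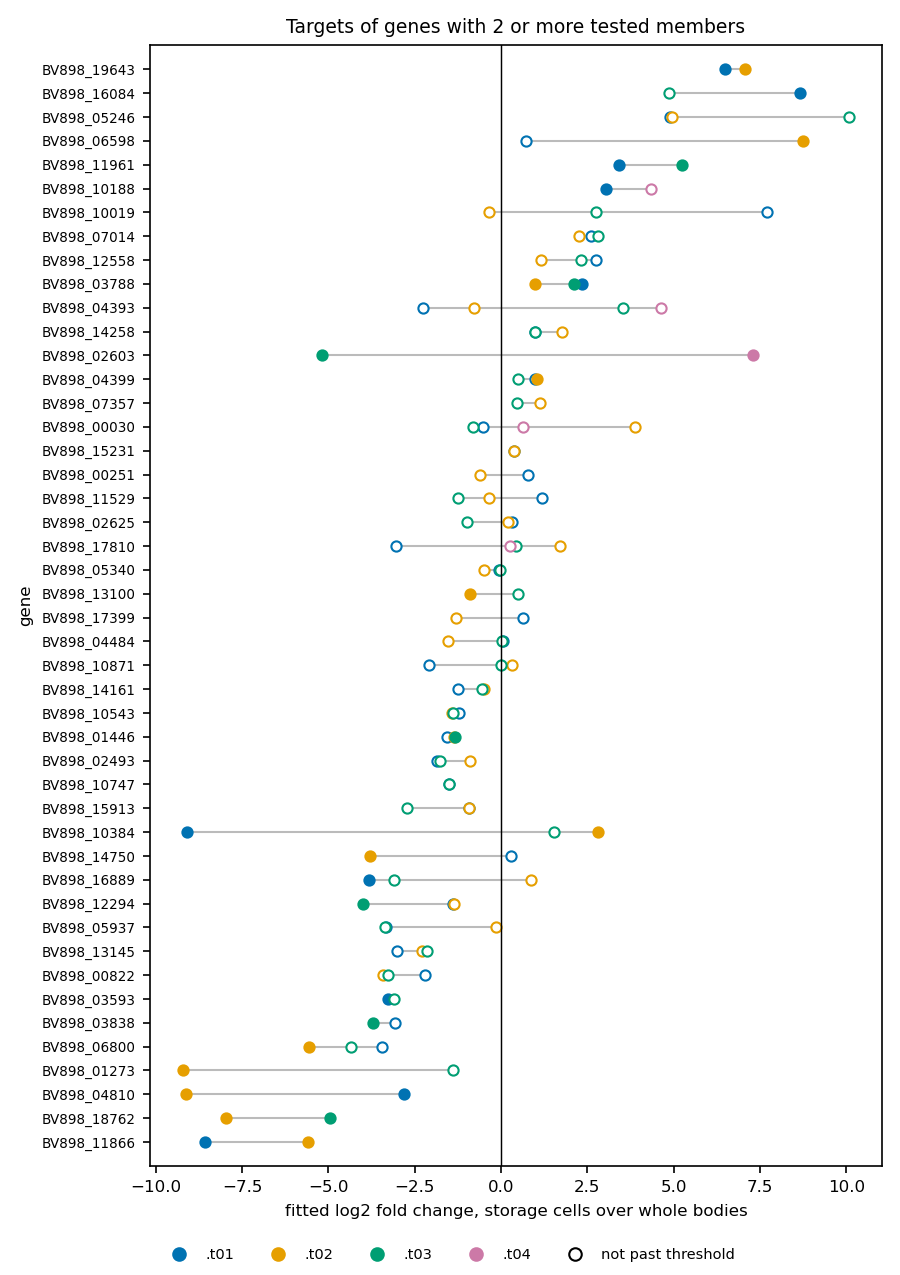
Fitted log2 fold change of each tested isoform (horizontal axis, storage cells over whole bodies, TMM scale) for the 46 genes with 2 or more tested members (lines, ordered by their mean); filled points passed an edgeR adjusted p of 0.05. BV898_02603 and BV898_10384 have filled points on both sides of 0, and isoforms of BV898_19643 and BV898_11961 lie together on the right; for isoforms without counts in one group the fitted value depends on the prior count.

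Isoforms of the same gene that rose together were led by BV898_19643 and BV898_11961. BV898_19643.t01 (1976 bases) had 59.1, 218, 507, 201 and 250 counts in storage cells, against 5.96, 4.97 and 3.28 in whole bodies, and rose by 6.49 (log2; edgeR adjusted p 0.00158). BV898_19643.t02 (756 bases) rose by 7.06 (edgeR adjusted p 0.00279), and BV898_19643.t03 was listed at 0 in all 8 libraries. The shares of BV898_19643.t01 were 59.9% to 79.1% in storage cells and 60.7% to 81% in whole bodies, but the whole-body shares rest on 5.4 to 7.36 counts per library, under the limit of 20, and the mix was not assessed. The gene's sum rose by 6.72 ± 0.75 (SE; edgeR adjusted p 0.00143). Both isoforms and the sum passed the filter on low counts through storage cells alone, so these folds and adjusted p are descriptions.

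BV898_11961.t01 (2280 bases) had 1783, 2348, 1134, 2208 and 1960 counts in storage cells, against 377, 442 and 252 in whole bodies. BV898_11961.t03 (885 bases) had 349, 259, 181, 297 and 187 in storage cells, against 0.098, 12 and 28.1 in whole bodies. Both were higher in all storage cell libraries, by 3.40 and 5.24 on the log2 scale (edgeR adjusted p 0.00427 and 0.0152), although the second call was 0.0701 without whole-body replicate 2. BV898_11961.t02 (1425 bases) was listed at 0 throughout.

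BV898_03788 is the gene in which all 3 isoforms passed upwards on the TMM scale, by 2.34, 0.98 and 2.12 (edgeR adjusted p 0.00816, 0.0449 and 0.0166). Its isoforms have 765, 798 and 768 bases. In TPM the gene stood at 139, 163, 293, 252 and 199 in storage cells, against 141, 131 and 179 in whole bodies, and these overlap. BV898_03788.t01 kept its call with any 1 library left out, and BV898_03788.t03 lost it without whole-body replicate 1 or 2 (edgeR adjusted p 0.08 and 0.0688). BV898_03788.t02 lost it without any whole-body library or without storage cell replicate 2, 4 or 5 (edgeR adjusted p 0.055 to 0.181), and with DESeq2 size factors (0.056). With library totals none of the 3 passed, and BV898_03788.t02 had a log2 fold change of -0.46 (edgeR adjusted p 0.373). The sign also turned for BV898_04399.t02, at 1.05 on the TMM scale (edgeR adjusted p 0.0291) and -0.46 with library totals (edgeR adjusted p 0.221), and its call was lost without any 1 of the whole-body libraries (edgeR adjusted p 0.0712 to 0.132).

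Both tested isoforms of BV898_18762 fell. BV898_18762.t02 (5895 bases) had 0.123, 3.64, 2.76, 0.0804 and 0.0619 counts in storage cells, against 773, 615 and 421 in whole bodies. BV898_18762.t03 (5880 bases) had 2.88, 39.4, 34.2, 2.92 and 0.938 in storage cells, against 1021, 746 and 506 in whole bodies. They fell by 7.96 and 4.95 on the log2 scale (edgeR adjusted p 0.00218 and 0.00692). BV898_18762.t02 passed the filter on low counts through whole bodies alone, so its fold and adjusted p are descriptions. The share of BV898_18762.t02 was 2.68% to 8.46% in storage cells and 43.1% to 45.5% in whole bodies, but 3 of the storage cell libraries had 1 to 3 counts for the gene, and the edgeR usage test gave an adjusted p of 0.201. BV898_06800.t02 (3852 bases) fell by 5.57 (edgeR adjusted p 0.0379), with 50.7 counts in storage cell replicate 2 and at most 0.00393 in the other 4, against 925, 699 and 425 in whole bodies. It passed that filter through whole bodies too, and its fold and adjusted p are descriptions. BV898_03838.t03 (4926 bases) had 3, 0.124, 30, 14 and 2 counts in storage cells, against 284, 220 and 227 in whole bodies, and fell by 3.70 (edgeR adjusted p 0.0443). The calls of BV898_06800.t02 and BV898_03838.t03 were each lost without any 1 of the whole-body libraries, with edgeR adjusted p of 0.0827 to 0.111 and of 0.0985 to 0.125. BV898_06800.t02 also lost its call without storage cell replicate 1, 4 or 5 (edgeR adjusted p 0.0549 to 0.0568), and BV898_03838.t03 without storage cell replicate 1 or 5 (0.0746 and 0.0702) and with no filter on low counts (0.0629).

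Of the 4 most abundant member genes on the TPM scale, 3 were the same in both sample types. BV898_04399 had the highest mean in storage cells, 249 ± 31.7 TPM (SD, n = 5), but BV898_07014 was above it in replicate 1 and BV898_03788 in replicate 3. Its values were 273, 240, 229, 291 and 214 TPM in storage cells, against 411, 482 and 484 in whole bodies. BV898_10871 led in whole bodies with 637, 791 and 630 TPM, and had 43.7, 150, 233, 24.8 and 153 in storage cells. Both were lower in every storage cell library than in any whole-body library in TPM. On the TMM scale the sum of BV898_04399 went the other way, with 133 to 210 CPM in storage cells and 92.5 to 120 CPM in whole bodies, and its log2 fold change of 0.81 did not pass (edgeR adjusted p 0.0792). The log2 fold change of the BV898_10871 sum was -1.50 (edgeR adjusted p 0.131). In storage cells BV898_03788, BV898_10871 and BV898_07014 followed, at 209 ± 63.2, 121 ± 86.1 and 111 ± 128 TPM (SD, n = 5), and their spread puts no order between them. In whole bodies BV898_05340 and BV898_03788 came next, at 163 ± 28.4 and 150 ± 25 TPM (SD, n = 3), which also overlap. BV898_07014 ranged from 18.8 to 315 TPM in storage cells, against 51.1 to 72.9 in whole bodies, while BV898_07014.t01 led in all 8 libraries with 68.5% to 92.2% and 68.7% to 71.5%.

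BV898_04399 divides its counts among 3 isoforms of 573 to 633 bases. BV898_04399.t03 held 28%, 39.5%, 39%, 38.7% and 40.9% in storage cells, against 51.3%, 40.5% and 47% in whole bodies. The groups overlapped at storage cell replicate 5. It led in 7 of the 8 libraries, and BV898_04399.t01 led in storage cell replicate 1 with 40.6%. The exact permutation p for BV898_04399.t03 was 0.0357, adjusted 0.21.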

How the data were processed

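RNA-seq tables of 8 Hypsibius exemplaris libraries were used, grouped by the titles in the labels. Per the file headers, the deposited tables give an estimated count and a TPM value for each target, with its length and effective length, and replicates were not pooled. Reads were handled with bcl2fastq 2 and kallisto 0.46.1, per the submitters' processing notes. A genome build, a transcript annotation or a read filter was not given in the sources used here. None of the identifiers (0 matches) was in the table of gene names, so no sequence, position or role is given.

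Estimated counts were rounded and fitted over all targets, or over gene sums, with edgeR 4.0.16 (R 4.3.3): filterByExpr, TMM, the quasi-likelihood test and diffSpliceDGE, without covariates, two-sided, with Benjamini-Hochberg adjustment over everything tested and a threshold of 0.05. A standard error is the log2 fold change over the root of F. A fold against a group whose rounded counts were 0 used 3 counts over that group and TMM-scaled totals. Shares used unrounded counts, a tie being within 1e-06. The exact permutation test took the difference in mean share of the whole-body leader, chosen anew in each of 56 splits, or of fewer where a library was not assessed. The fits and the permutation test were tested on simulated data. limma 3.58.1, DESeq2 1.42.0, Python 3.11.15, numpy 2.4.6, pandas 2.3.3 and scipy 1.17.1 were also used.

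Genes were named by rule: those past the usage threshold, the 8 largest changes of leader, the 4 most abundant in each group, the 4 isoforms that rose and the 4 that fell most among those with at least 20 CPM and groups apart, the first 3 genes by number of targets, the 5 most abundant with 1 leader throughout, and genes with opposite changes. Others are named as exceptions. The members, the rules and the lists were chosen with earlier results of these data known. Floors and counts cover counting error only, because PCR reads without molecular identifiers are not independent molecules, and estimated counts also carry the error of dividing shared reads, for which the tables give no measure.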

Additional observations from a re-analysis of the deposited data

Results flagged for a closer look

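Single storage cell libraries stood far from the other 4 in 12 of 46 sets of 5 values screened (or 4 where a library was not assessed), where chance gives about 1 in 20 for normally distributed values. Summed TPM can be skewed, and a set with 4 values of 0 and 1 above it is always found, so the number is a description. Of these, 8 were summed TPM of a gene. Replicate 4 had 212 TPM for BV898_04393 (others 7.65 to 53.1) and 15.7 for BV898_10019 (6.94 to 8.73). Replicate 1 had 154 TPM for BV898_05340 (5.57 to 31.7) and 153 for BV898_10384 (40.8 to 56.4). Replicate 2 had 5.05 TPM for BV898_04810 (0.343 to 0.954), 3.24 for BV898_06800 (0.291 to 0.871) and 0.0736 for BV898_00096 (0 in the others). Replicate 3 had 1.69 TPM for BV898_01273 (0.0355 to 0.156).

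The other 4 were shares. BV898_04399.t03 held 28.0% in replicate 1 (others 38.7% to 40.9%), BV898_10019.t02 held 0.000412% in replicate 3 (21.7% to 29.5%), BV898_17399.t02 held 75.4% in replicate 2 (4.02e-05% to 0.345%), and BV898_17810.t01 held 21.4% in replicate 2 (0% in the others).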

How the results depend on the processing

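Of 32 members past the abundance threshold, DESeq2 gave 59 (30 higher and 29 lower) and voom with quality weights 65 (24 and 41), and both included all 32. For the alternatives in this section other than library totals, the share over all targets or genes is not given. A shift of all targets and a trait of the members therefore cannot be told apart in these numbers. With library totals, an alternative added after seeing the data, 7 were higher and 39 lower, and 26 of the 32 remained. Leaving out 1 library gave 20 to 48 (higher 8 to 23, lower 12 to 25), with the most, 48, without storage cell replicate 3. Of 29 gene sums, voom gave 44 (30 lower), library totals 5 higher and 32 lower, and leaving out 1 library 18 to 37 (higher 6 to 15, lower 12 to 22). Of 6 usage calls, Simes-adjusted target tests and no filter on low counts each gave 3, and leaving out 1 library 2 to 7. With library totals 3 named values turned their sign without passing: BV898_03788.t02 at -0.46, BV898_04399.t02 at -0.46 and the sum of BV898_10019 at -0.051 (0.98, 1.05 and 1.51 with TMM). The cause was not tested.

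The numbers of genes that changed leader were 9 to 14 over all alternatives, with 4 genes under each of them: BV898_04393, BV898_05340, BV898_10019 and BV898_17810. In BV898_05340 and BV898_17810, libraries of the same group had different leaders. For BV898_05340 the mean distance was 20.7 points between groups and 26.9 between storage cell replicates. The alternatives reuse mostly the same libraries, so they cannot separate a change of leader from replicate spread. Genes that changed in every library were 2 or 3, and no leading share passed after adjustment. For BV898_12294 the difference was -20.6 points with a limit of 10 counts (-36.7 with 20), and on TPM shares it was -39.2 for BV898_10871 (-30.7 on counts) and -19.8 for BV898_11961 (-7.90).

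With the replicate number as a block, 3 members (2 higher, 1 lower), 5 gene sums (4 higher, 1 lower) and 0 usage calls passed. That fit spends a coefficient on each replicate number, which leaves few residual degrees of freedom. The correlations of deviations of same-numbered libraries were 0.03, -0.04 and 0.04, against -0.04 to 0.07 for the other pairs. The labels do not say whether same-numbered libraries belong together, and correlations from so few libraries cannot decide it. Counts limit the shares in storage cells, where members took a smaller part of deeper libraries: 35 to 48 member genes reached 20 counts in a storage cell library and 53 to 56 in a whole-body library.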
